A study of Homo sapiens with 8 samples.

Results

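The genes described here are 7 kallikrein-related peptidases, KLK5, KLK6, KLK7, KLK8, KLK10, KLK11 and KLK13, and SPINK5, the gene of an inhibitor of several of these proteases. They were chosen by symbol, and all 8 were found among the 35113 genes of the data. All 8 also passed the filter on low counts, which left 15221 genes. KLK5, KLK6, KLK7, KLK8 and KLK13 passed it through the HPV- line only, so a difference between the lines was built into their selection, while KLK10, KLK11 and SPINK5 reached the filter's level in both lines.

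Kallikreins are secreted serine proteases that are made as inactive precursors and are switched on when another protease removes a short propeptide. In stratified epithelia they form a cascade in which KLK5 activates itself, KLK7 and other members, and the active enzymes cut the desmosomal proteins that hold cornified cells together. SPINK5 encodes LEKTI, a chain of inhibitory domains that is cut into fragments which block KLK5, KLK7 and related proteases. Loss of SPINK5 causes Netherton syndrome, in which unrestrained kallikreins degrade the skin barrier. Several members of the family are used as tumour markers.

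RNA was sequenced from 4 groups of 2 libraries, 8 in all. The HPV+ resistant cells were SCC35, a clone of UDSCC2, and the HPV+ parental cells were UDSCC2 (SCC2). The HPV- resistant cells were SCC411, a clone of UPCISCC89, and the HPV- parental cells were UPCISCC89 (SCC89). Both are established head and neck squamous cell carcinoma lines, with (HPV+) or without (HPV-) human papillomavirus. Each resistant group is 1 single-cell clone, selected in rising cisplatin, a platinum drug that crosslinks DNA, and then grown without the drug, with a higher dose used for the HPV+ line. It is not stated that libraries of 1 group were made from different cultures, and the p-values therefore reflect only how these libraries varied, which may be technical variation. Estimated counts summed to between 20250246 and 27341284 read pairs per library. All 10 squamous epithelial markers were detected in every group, with a summed level of 2586 to 3149 TPM in HPV+ resistant cells, 1939 to 2101 in HPV+ parental cells, 2590 to 3218 in HPV- resistant cells and 12690 to 13490 in HPV- parental cells. Of 6 fibroblast markers, COL3A1, DCN and LUM were abundant in the HPV+ line, where the list summed to 398 to 823 TPM in resistant and 840 to 1010 TPM in parental cells, while PDGFRB had 0 counts there. The same list summed to 5.39 to 6.14 TPM in HPV- resistant and 1.78 to 2.90 TPM in HPV- parental cells. COL1A1 and COL1A2 of the list did not follow. COL1A1 was at 1.87 TPM in HPV+ resistant, 4.01 in HPV+ parental, 4.55 in HPV- resistant and 2.19 in HPV- parental cells. COL1A2 was at 0.367, 0.051, 1.14 and 0.152 TPM in the same order. Endothelial markers summed to at most 0.0934 TPM in any library, and of 4 leukocyte markers only CD68 passed the filter. Levels between genes are given as TPM, Salmon's abundance corrected for transcript length and depth, and differences as log2 fold changes of CPM, read counts scaled to the size of the library. In bulk RNA, fewer cells that express a gene and less RNA in each cell cannot be told apart.

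The 7 kallikrein genes lie on the minus strand of chromosome 19 in GRCh38, in the order KLK5 (chr19:50943303-50953093), KLK6 (chr19:50958631-50969673), KLK7 (chr19:50976468-50984099), KLK8 (chr19:50996007-51002711), KLK10 (chr19:51012739-51020175), KLK11 (chr19:51022216-51028039) and KLK13 (chr19:51055626-51065114). SPINK5 lies on the plus strand of another chromosome (chr5:148025683-148137382). RefSeq promoter windows on GRCh38.p14, from 250 bases before to 50 bases after a transcript start, were matched for 7 of the 8 genes, as 12 windows, and KLK8 was not matched. Both strands were searched for 4 motifs. The AP-1 site TGANTCA occurred in 7.71% of the 35116 RefSeq promoter windows, and the TATA box TATAAA in 11.5%. The grainyhead-like site AACNGGTT occurred in 1.73% of them, and the C/EBP site TTGCNNAA in 10.5%. None was found in the 11 kallikrein windows, whereas the SPINK5 window held TATAAA beginning 30 bases before the start, an overlapping reverse-strand match beginning 32 bases before it, and AACTGGTT beginning 61 bases before it. A match is only a run of letters and was not tested for binding. These 4 windows are shown because they belong to the inhibitor and to 3 proteases whose levels the results turn on, each at the start of a main transcript. They are SPINK5 (chr5:148063730-148064029, plus strand), KLK5 (chr19:50952989-50953288, minus strand), KLK7 (chr19:50983868-50984167, minus strand) and KLK10 (chr19:51019660-51019959, minus strand), written 5′ to 3′ with motif matches in capitals.
SPINK5: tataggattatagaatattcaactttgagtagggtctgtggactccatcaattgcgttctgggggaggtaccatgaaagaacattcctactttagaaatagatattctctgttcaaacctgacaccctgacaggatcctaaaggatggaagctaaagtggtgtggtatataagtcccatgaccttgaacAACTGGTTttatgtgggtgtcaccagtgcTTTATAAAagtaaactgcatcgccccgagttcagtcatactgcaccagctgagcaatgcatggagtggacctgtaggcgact
KLK5: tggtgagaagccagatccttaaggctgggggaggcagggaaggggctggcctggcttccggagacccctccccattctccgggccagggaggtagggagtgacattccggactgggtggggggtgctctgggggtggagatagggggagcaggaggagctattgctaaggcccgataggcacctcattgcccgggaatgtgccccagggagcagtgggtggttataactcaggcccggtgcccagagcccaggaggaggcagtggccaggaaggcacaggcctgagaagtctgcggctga
KLK7: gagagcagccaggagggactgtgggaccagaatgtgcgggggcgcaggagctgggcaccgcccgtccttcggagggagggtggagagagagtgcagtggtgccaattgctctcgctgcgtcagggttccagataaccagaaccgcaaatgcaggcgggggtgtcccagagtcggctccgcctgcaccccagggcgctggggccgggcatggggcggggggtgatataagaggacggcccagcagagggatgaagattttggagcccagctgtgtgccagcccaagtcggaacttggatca
KLK10: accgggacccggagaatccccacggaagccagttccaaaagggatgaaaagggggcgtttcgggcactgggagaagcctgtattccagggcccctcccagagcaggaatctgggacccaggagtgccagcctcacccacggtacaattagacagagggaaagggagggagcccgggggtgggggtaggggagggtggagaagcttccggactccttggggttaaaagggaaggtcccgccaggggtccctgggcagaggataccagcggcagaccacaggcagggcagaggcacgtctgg
The windows also differed in composition. The SPINK5 window was 43.7% G and C, the lowest of the 12, while the kallikrein windows ran from 59.0 to 70.7%, against a median of 58.7% over all promoter windows. It held 4 CpG dinucleotides, compared with 3 to 23 over the 11 kallikrein windows, 1 KLK11 window having the fewest, and a median of 14 over all windows.

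The lines had opposite inventories of these transcripts. In the HPV+ line the inhibitor led, with SPINK5 at 93.5 ± 8.5 TPM in resistant and 36.9 ± 5.2 TPM in parental cells (SD, n = 2 each). KLK10 came next, at 4.62 ± 1.93 TPM in resistant and 6.25 ± 0.59 TPM in parental cells, followed by KLK11 at 1.06 ± 1.36 TPM in resistant and 1.17 ± 0.46 TPM in parental cells. KLK5, KLK6 and KLK13 had 0 counts in all 4 HPV+ libraries. In the HPV- line KLK10 led, at 85.6 ± 5.4 TPM in resistant and 69.1 ± 5.6 TPM in parental cells, and KLK6 was second, at 14.8 ± 10.8 TPM in resistant and 17.9 ± 4.0 TPM in parental cells. The first 2 ranks did not overlap with the next gene in any of the 4 groups. In HPV+ resistant cells the range of KLK11 overlapped with that of KLK8, and KLK8 with KLK7. Lower in the order, the ranges of KLK11 and KLK7, KLK7 and KLK8, and KLK5 and SPINK5 overlapped in HPV- parental cells, and those of every neighbouring pair from KLK8 down overlapped in HPV- resistant cells. SPINK5 was last in HPV- resistant cells, at 0.638 ± 0.434 TPM, and was at 1.29 ± 0.61 TPM in HPV- parental cells, within reach of KLK5 and above KLK13.

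**Figure D1:**
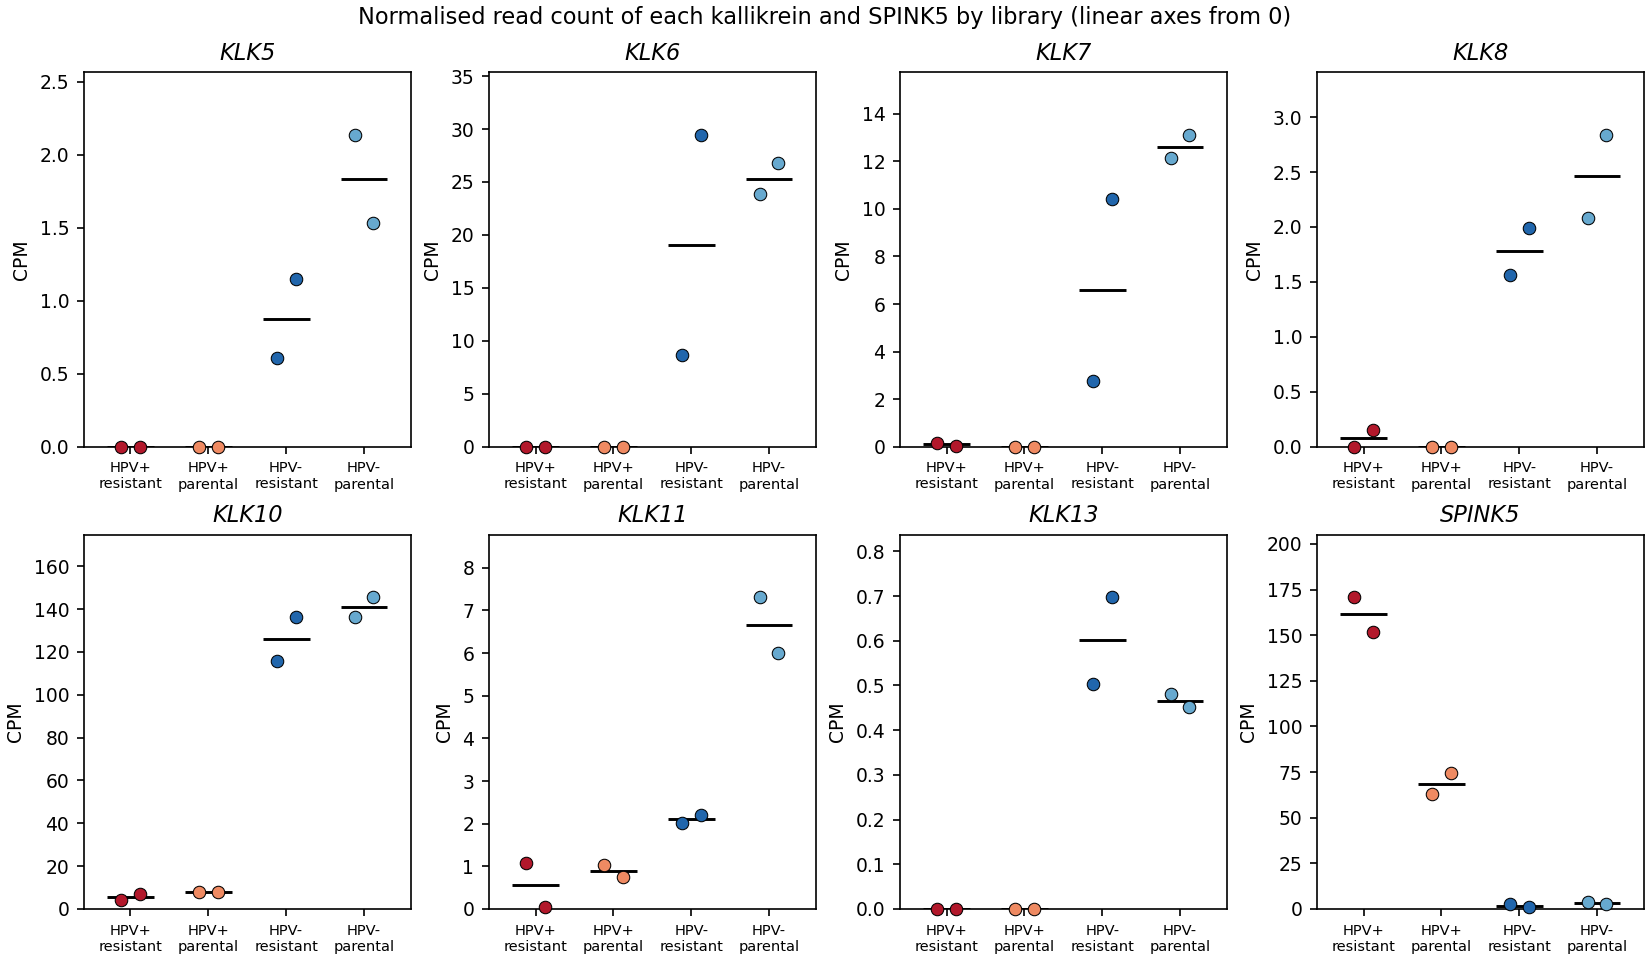
Normalised read count (CPM, linear axes from 0) of the 7 kallikreins and SPINK5 in each library of the 4 groups, where points are libraries, replicate 1 left of replicate 2, and lines are means of 2. SPINK5 is high in the HPV+ line and highest in its resistant clone. The kallikreins are higher in the HPV- line than in the HPV+ line. Each panel has its own axis, and KLK13 has means of only 0.601 CPM in HPV- resistant and 0.466 CPM in HPV- parental cells. KLK6 and KLK7 are split between the 2 HPV- resistant libraries.

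The first comparison asks whether the HPV+ resistant clone differs from its parental cells. SPINK5, the inhibitor, was higher in the resistant clone, and none of the 7 kallikreins passed the test. SPINK5 had 171 and 152 CPM in HPV+ resistant cells, against 63.0 and 74.5 CPM in HPV+ parental cells. The libraries of the groups did not overlap, and those within a group differed by 1.13-fold in resistant and 1.18-fold in parental cells. The log2 fold change was 1.23 (SE 0.24), a ratio of 2.34, with an adjusted p of 0.0088 by edgeR's quasi-likelihood test. This was 1 of the 8 genes, compared with 8.0% of all genes tested that were differentially expressed in this comparison and 3.40% that were higher and 4.60% that were lower. A gene was called differentially expressed at a log2 fold change beyond 1 and an adjusted p under 0.05. The call was lost without HPV+ parental replicate 1 (log2 fold change 1.10, adjusted p = 0.117) or HPV+ resistant replicate 1 (1.14, adjusted p = 0.0589). It was also lost with an offset for transcript length (1.27, adjusted p = 0.0582) and in limma on log2(TPM + 0.1) (1.34, adjusted p = 0.0824), each in the same direction. The markers LUM and DCN of the fibroblast list were lower in the same clone. COL3A1 (log2 fold change -0.36), COL1A1 (-0.06) and COL1A2 (1.46) of that list were not called. The squamous list had 3 genes higher and 1 lower. The part of either list in the result was not tested.

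SPINK5 transcripts kept nearly the same makeup in the HPV+ line. SPINK5-201, a coding transcript of 3651 bases that starts in the window shown, took 59.1 and 57.1% of the SPINK5 counts in HPV+ resistant cells and 61.6 and 58.3% in HPV+ parental cells. SPINK5-204, of 810 bases and with no defined coding sequence, took 8.87 and 10.3% of counts in resistant cells and 10.9 and 9.42% in parental cells. Because it is short, SPINK5-204 made up 32.7 and 38.7% of SPINK5 TPM in resistant and 38.8 and 35.5% in parental cells. The resistant and parental ranges of each share overlapped.

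KLK10, an epithelial kallikrein lost in several carcinomas, was the only kallikrein with many counts in the HPV+ line. It had 109 and 179 counts (4.32 and 6.94 CPM) in HPV+ resistant cells, against 202 and 208 counts (7.94 and 7.85 CPM) in HPV+ parental cells. Both resistant libraries were below both parental ones, but the log2 fold change of -0.49 (SE 0.21) had an adjusted p of 0.139. KLK11, a trypsin-like kallikrein, had 27 and 1 counts in HPV+ resistant cells, against 26 and 20 in HPV+ parental cells. The 2 resistant libraries thus lay on either side of the parental ones, and the log2 fold change of -0.68 (SE 0.85, adjusted p = 0.621) became 0.27 without HPV+ resistant replicate 2 and -4.34 (adjusted p = 0.0105) without HPV+ resistant replicate 1. KLK7, a chymotrypsin-like protease of the desquamation cascade, had 4 and 1 counts in HPV+ resistant cells and 0 in both HPV+ parental libraries. KLK8, a trypsin-like protease also known as neuropsin, had 0 and 4 counts in HPV+ resistant cells and 0 in both HPV+ parental libraries. Against a floor of 3 counts over the parental group these are ratios of at least 1.70 and 1.36, and neither passed the test (adjusted p = 0.236 and 0.172).

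The second comparison asks the same of the HPV- resistant clone. None of the 8 genes was differentially expressed, compared with 11.3% of all genes tested, of which 6.06% were higher and 5.22% lower. DESeq2 also called none, and at an unadjusted p under 0.05 there was 1 gene in edgeR, SPINK5. The median log2 fold change of the 8 genes was -0.70, against 0.04 over all genes tested. Of the 8 genes, 6 had both resistant libraries below both parental libraries in CPM, which held for 28.5% of all genes tested, KLK13 had both above, which held for 32.7%, and KLK6 overlapped. In the same comparison 6 of the 10 squamous markers were lower, KRT14 and KRT6A among them, and 1 was higher, and their part in these values was not tested.

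SPINK5 was low in the HPV- line, with 50 and 21 counts (2.52 and 1.05 CPM) in HPV- resistant cells, against 76 and 63 counts (4.06 and 2.84 CPM) in HPV- parental cells. The log2 fold change was -0.94 (SE 0.35), with an unadjusted p under 0.05 and an adjusted p of 0.071 over all genes in edgeR. Without HPV- resistant replicate 1 it was -1.71 (adjusted p = 0.0162), which passes both thresholds. DESeq2 gave -0.95 with an adjusted p of 0.00942, which misses only the fold threshold.

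KLK5, the trypsin-like protease that starts the cascade, had 12 and 23 counts (0.604 and 1.15 CPM) in HPV- resistant cells, against 40 and 34 counts (2.14 and 1.53 CPM) in HPV- parental cells. KLK7, which KLK5 activates, had 55 and 209 counts (2.77 and 10.4 CPM) in HPV- resistant cells, against 227 and 291 counts (12.1 and 13.1 CPM) in HPV- parental cells. KLK6, a trypsin-like protease first described in the brain, had 172 and 591 counts (8.66 and 29.5 CPM) in HPV- resistant cells, against 447 and 594 counts (23.9 and 26.8 CPM) in HPV- parental cells. The 2 libraries of the resistant clone disagreed most for KLK7 and KLK6, by 3.76-fold and 3.40-fold, while the parental libraries differed by 1.08-fold and 1.12-fold. In replicate 1 both genes were far below the parental libraries, and in replicate 2 KLK6 was above them. The log2 fold changes were -1.06 (SE 0.66, adjusted p = 0.272) for KLK5, -0.94 (SE 0.56, adjusted p = 0.257) for KLK7 and -0.41 (SE 0.59, adjusted p = 0.666) for KLK6. Without HPV- resistant replicate 2 both KLK6 (-1.56, adjusted p = 0.0167) and KLK7 (-2.19, adjusted p = 0.0202) were called lower, and without HPV- resistant replicate 1 KLK6 was at 0.22. All 7 kallikreins had more CPM in replicate 2 than in replicate 1 of the clone, by as little as 1.09-fold for KLK11 and 1.175-fold for KLK10. SPINK5 had 2.41-fold more in replicate 1. The share of all genes with either order was not counted, so these orders are descriptions.

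KLK11 had 40 and 44 counts (2.01 and 2.19 CPM) in HPV- resistant cells, against 137 and 133 counts (7.32 and 6.0 CPM) in HPV- parental cells. The resistant libraries agreed within 1.09-fold and the ratio was 0.319, the lowest of the 8 genes, with a log2 fold change of -1.66 (SE 0.75, adjusted p = 0.137). The fit shares its estimate of spread over all groups, and the HPV+ resistant libraries had 27 and 1 KLK11 counts. With only the 4 HPV- libraries the log2 fold change was -1.69 (adjusted p = 0.00635), and without HPV+ resistant replicate 1 or replicate 2 it was -1.66 (adjusted p = 0.00752 and 0.0073), each of which passes both thresholds. KLK8 had 31 and 40 counts in HPV- resistant cells, against 39 and 63 in HPV- parental cells (log2 fold change -0.47, adjusted p = 0.642). KLK13, another trypsin-like member, had 10 and 14 counts in HPV- resistant cells, against 9 and 10 in HPV- parental cells (log2 fold change 0.37, adjusted p = 0.778). The standard errors were 0.67 for KLK8 and 0.79 for KLK13.

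KLK10 was the most abundant of the 8 genes in the HPV- line and the direction of its difference depended on the scale. It had 2300 and 2730 counts (116 and 136 CPM) in HPV- resistant cells, against 2551 and 3231 counts (136 and 146 CPM) in HPV- parental cells, a log2 fold change of -0.16 (SE 0.19, adjusted p = 0.554). In TPM it was instead higher, at 81.8 and 89.4 in HPV- resistant cells, against 65.2 and 73.1 in HPV- parental cells. With an offset for transcript length the log2 fold change was 0.15, and on log2(TPM + 0.1) in limma it was 0.31, neither past the threshold. The shares of its transcripts differed at the same time. KLK10-202, the coding transcript of 2984 bases whose start is in the window shown, took 67.5 and 67.8% of KLK10 counts in HPV- resistant cells, against 78.5 and 81.9% in HPV- parental cells. KLK10-206, of 1428 bases and annotated for nonsense-mediated decay, took 23.3 and 26.4% in HPV- resistant cells, against 16.4 and 15.7% in HPV- parental cells. In the HPV+ line KLK10-206 took 55.7 and 41.6% of counts in resistant cells and 40.0 and 31.3% in parental cells. The shares come from the authors' estimates of overlapping transcripts and were not tested.

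**Figure D2:**
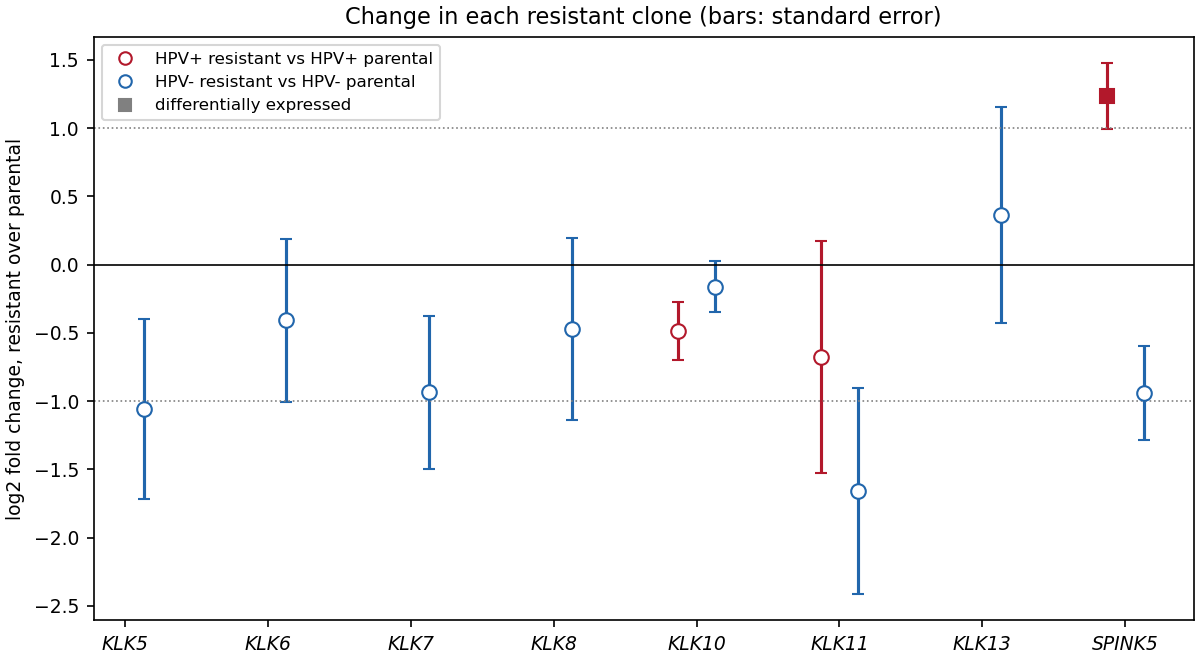
Log2 fold change of each gene in the HPV+ resistant clone over HPV+ parental cells (red) and in the HPV- resistant clone over HPV- parental cells (blue), with bars of 1 standard error and dotted lines at the fold threshold of 1. SPINK5 at 1.23 in the HPV+ line is the only filled square, a differentially expressed gene, and genes with 5 or fewer counts in both HPV+ groups have no red point.

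Whether the 2 resistant clones differ was tested as the difference of the effects, HPV+ minus HPV-. SPINK5 was the 1 gene of the 8 that passed, compared with 11.7% of all genes tested, of which 5.17% were higher and 6.57% lower. The difference was 2.17 (SE 0.42, adjusted p = 0.00751), made up of 1.23 in the HPV+ line and -0.94 in the HPV- line. Leaving out each library in turn gave 1.68 to 2.93 and kept the call. KLK10 gave -0.32 (SE 0.28, adjusted p = 0.481) and KLK11 0.98 (SE 1.14, adjusted p = 0.617). For the other 5 kallikreins the HPV+ line had 5 counts or fewer in either group, so the difference could not be read.

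The third comparison sets the 2 parental lines side by side, which differ in HPV status and in every other property of the lines. It shares its libraries with the comparisons above. All 7 kallikreins were lower and SPINK5 was higher in HPV+ parental cells, in a comparison in which 37.0% of all genes tested were differentially expressed, 17.7% higher and 19.3% lower. The 5 kallikreins that passed the filter through the HPV- line had to differ here, so the count is a description.

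SPINK5 had 63.0 and 74.5 CPM in HPV+ parental cells, against 4.06 and 2.84 CPM in HPV- parental cells. The groups were far apart, at a ratio of 20.3 and a log2 fold change of 4.32 (SE 0.30, adjusted p = 1.53e-06). KLK10 had 7.94 and 7.85 CPM in HPV+ parental cells, against 136 and 146 CPM in HPV- parental cells, a log2 fold change of -4.16 (SE 0.22, adjusted p = 1.46e-07). KLK11 had 1.02 and 0.755 CPM in HPV+ parental cells, against 7.32 and 6.0 CPM in HPV- parental cells, with a log2 fold change of -2.90 (SE 0.80, adjusted p = 0.0121). The call of KLK11 was lost without HPV- parental replicate 1 (-2.76, adjusted p = 0.0526), HPV+ parental replicate 1 (-3.15, adjusted p = 0.0636) or HPV+ parental replicate 2 (-2.69, adjusted p = 0.0935).

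The other 5 kallikreins had 0 counts in both HPV+ parental libraries. With a floor of 3 counts over that group, KLK6 was at least 440.5-fold lower than in HPV- parental cells, KLK7 at least 219-fold, KLK8 at least 43.2-fold, KLK5 at least 31.3-fold and KLK13 at least 8.04-fold. These bounds are descriptions, since the filter kept the 5 genes only for their counts in the HPV- line. The fibroblast list had 3 genes higher in HPV+ parental cells, COL3A1, DCN and LUM, which passed the filter through the HPV+ line only. COL1A1 (log2 fold change 0.64) and COL1A2 (-1.69) of that list were not called. The squamous list had 6 lower and 1 higher, and the part of either list in these differences was not tested.

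Set against each other per library, transcripts of SPINK5 and of the 7 kallikreins changed places between the lines. Other inhibitors and KLK9 are not part of this ratio. SLPI was at 62.3 TPM in HPV- parental and 3.38 TPM in HPV+ parental cells, and SPINK6 at 0 and 92.1 TPM. KLK9 was at 19.6 TPM in HPV- parental and 0 TPM in HPV+ parental cells. SPINK5 TPM was 18.1 and 12.6 times the summed TPM of the 7 kallikreins in HPV+ resistant cells, against 4.53 and 5.39 times in HPV+ parental cells. In the HPV- line the kallikreins were in excess, at 105 and 392 times SPINK5 in HPV- resistant cells, against 58.5 and 138 times in HPV- parental cells. The resistant and parental ranges did not overlap in the HPV+ line and overlapped in the HPV- line. The sum was 5.51 and 6.96 TPM in HPV+ resistant cells, against 7.33 and 7.52 TPM in HPV+ parental cells, so both terms of the ratio differed. It was 99.4 and 130 TPM in HPV- resistant cells, against 100 and 118 TPM in HPV- parental cells. KLK10 made up 59.0 to 88.7% of the sum over the 8 libraries. These are ratios of RNA and say nothing of protease activity.

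**Figure D3:**
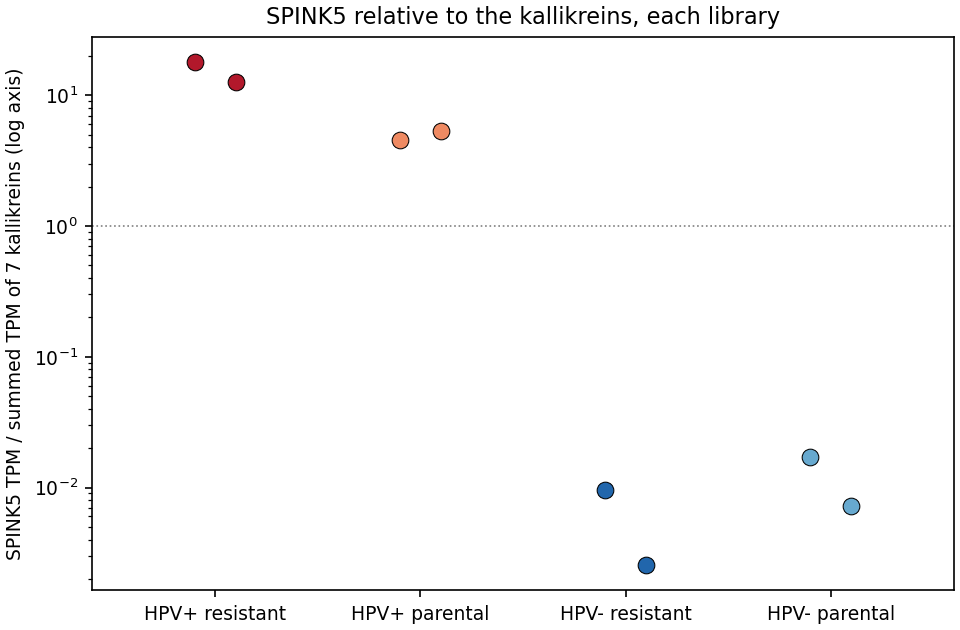
SPINK5 TPM divided by the summed TPM of the 7 kallikreins in each library (log axis), with groups left to right HPV+ resistant, HPV+ parental, HPV- resistant and HPV- parental. The HPV+ resistant libraries lie at 18.1 and 12.6, the HPV+ parental ones at 4.53 and 5.39, and all 4 HPV- libraries are below the dotted line at 1.

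Among the remaining 8 kallikreins, only KLK9 passed the filter. It had 3 and 0 counts in HPV+ resistant cells, 0 and 0 in HPV+ parental cells, 146 and 423 in HPV- resistant cells and 390 and 481 in HPV- parental cells. KLK9 too passed the filter only through the HPV- line, and as a description it was at least 369-fold lower in HPV+ parental than in HPV- parental cells. Its HPV- resistant libraries were split in the same order as those of KLK6 and KLK7. KLK9 and KLK8 overlap on the same strand, so reads may have been divided between them in either way and both are uncertain. KLK14, a strong trypsin-like protease and target of LEKTI, had 0 and 3 counts in HPV+ resistant cells, 8 and 7 in HPV+ parental cells, 2 and 0 in HPV- resistant cells and 7 and 3 in HPV- parental cells. KLK3, which encodes prostate-specific antigen, had 0 counts in every library.

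Within 500 kb of the kallikrein locus 16 other genes were tested, and in HPV+ against HPV- parental cells 1 was higher (NR1H2, log2 fold change 1.23) and 1 was lower (VSIG10L, -1.52), compared with 37.0% of all genes tested that were called in either direction. Their median log2 fold change was -0.08. None of the 16 was differentially expressed in the HPV- resistant clone and 1, ETFB, was lower in the HPV+ resistant clone, against 11.3% and 8.0% of all genes tested in those comparisons. The genes around SPINK5 were looked at in the same way after its values had been seen. SPINK6, another inhibitor of kallikreins, had 10.4 and 4.03 CPM in HPV+ resistant cells, 23.3 and 18.8 CPM in HPV+ parental cells and 0 counts in all HPV- libraries. SPINK1, the trypsin inhibitor of the pancreas, also had 0 counts in all HPV- libraries and was at least 31.8-fold higher in HPV+ parental than in HPV- parental cells. SCGB3A2, a secreted airway protein, was higher as well (log2 fold change 4.59), as was MARCOL, with 0 counts in the HPV- line. SPINK9 was lower (-1.27) and FBXO38 was not differentially expressed (0.36). SPINK1, SPINK6 and MARCOL passed the filter through the HPV+ line only, so their direction between the lines was built into their selection. In the HPV+ resistant clone SPINK5 was the only one of these 7 genes that was differentially expressed upward, and MARCOL was called lower (-2.86, adjusted p = 0.0492). MARCOL reached the filter's level in HPV+ parental cells only, so its lower level in the clone was also built into its selection and is a description. SPINK1 (0.82, adjusted p = 0.239) and SPINK9 (0.89, adjusted p = 0.223) had positive values and SPINK6 a negative one (-1.55, adjusted p = 0.051), none of which passed.

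**Figure D4:**
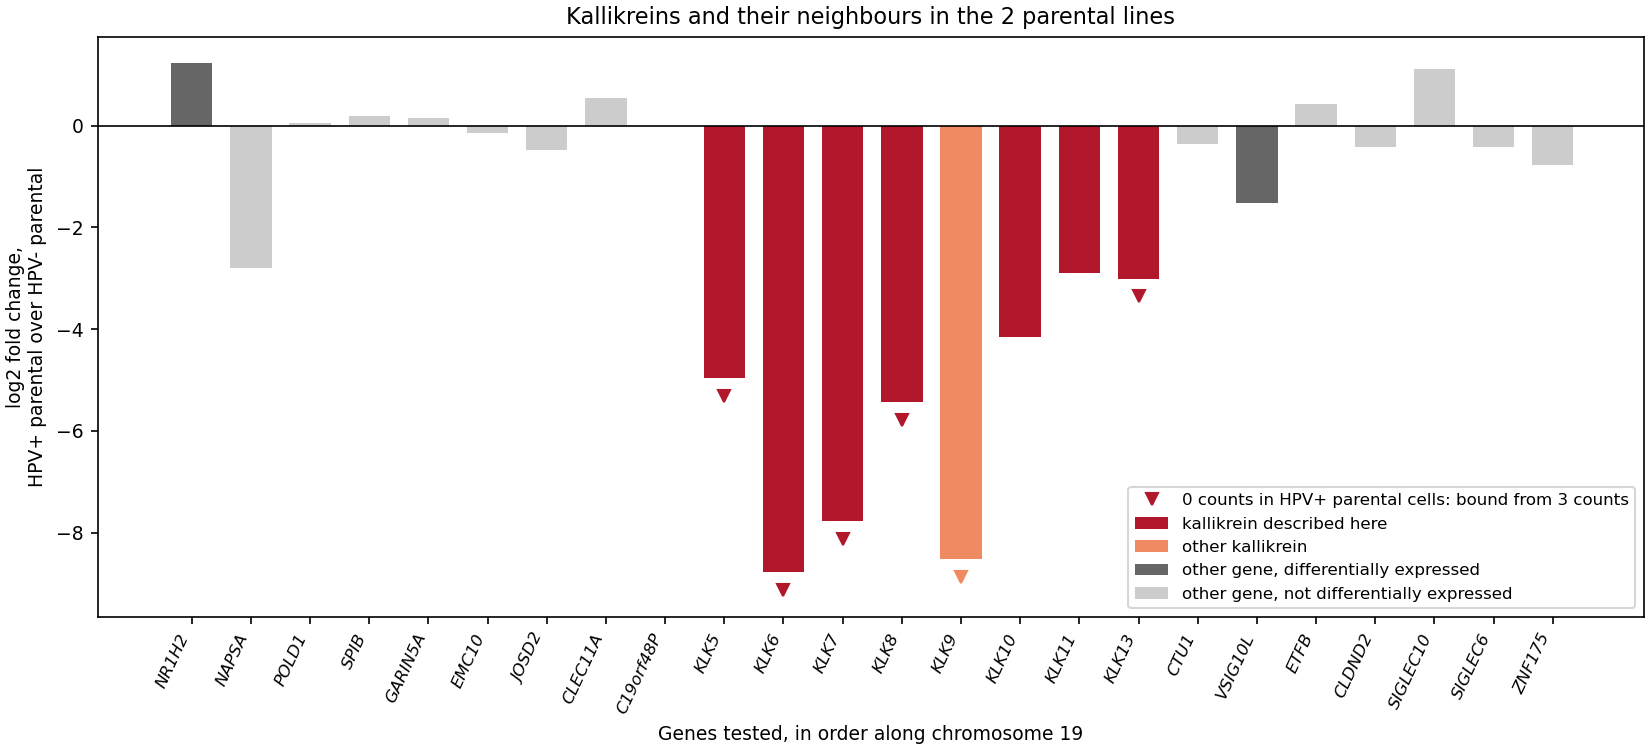
Log2 fold change of HPV+ parental over HPV- parental cells for each gene tested within 500 kb of the kallikrein locus, in gene order. The red bars, the 7 kallikreins, are all below -2, the orange bar is KLK9, the triangles mark genes with 0 counts in HPV+ parental cells whose bar is a bound from 3 counts, and of the 16 other genes only NR1H2 and VSIG10L are differentially expressed.

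Other genes of the same protease network were read from lists of inhibitors, proteases, and substrates and receptors. Of 19 other inhibitors 8 were tested. In the HPV+ resistant clone 1 was higher and none lower, in a comparison with 3.40% of all genes higher and 4.60% lower. In the HPV- resistant clone 3 were lower and none higher, in a comparison with 6.06% of all genes higher and 5.22% lower. SLPI, an inhibitor of neutrophil elastase and of KLK7, had 6.11 and 3.91 CPM in HPV+ resistant cells, against 1.42 and 0.717 CPM in HPV+ parental cells (log2 fold change 2.23, adjusted p = 0.00633). In the HPV- line SLPI was lower, with 11.1 and 6.48 CPM in resistant cells, against 26.1 and 18.7 CPM in parental cells (log2 fold change -1.35, adjusted p = 0.0205). PI3, the elastase inhibitor elafin, had 2 and 5 counts in HPV- resistant cells, against 959 and 931 in HPV- parental cells (log2 fold change -8.01, adjusted p = 3.35e-05). WFDC5, another gene of this family, was at least 20.5-fold lower in HPV- resistant cells. The difference of the effects, HPV+ minus HPV-, passed for SLPI, PI3 and WFDC5, in a comparison with 5.17% of all genes higher and 6.57% lower. It was 3.58 for SLPI (adjusted p = 0.00241). In the HPV+ line PI3 had 8 and 1 counts in resistant cells, against 0 and 2 in parental cells. WFDC5 had 6 and 1 counts in HPV+ resistant cells and 0 in both HPV+ parental libraries. With so few counts there, and a filter passed through HPV- parental cells only, their difference is a description. In HPV+ parental against HPV- parental cells 2 inhibitors were higher, SPINK1 and SPINK6, and 4 were lower. Over all genes tested 17.7% were higher and 19.3% lower. SPINK1 and SPINK6 passed the filter through the HPV+ line only, and PI3 and WFDC5 through HPV- parental cells only. The direction of these genes between the lines was thus built into their selection, and their part of the count is a description. For PI3 and WFDC5 the lower level in the HPV- resistant clone was built in as well. Their part of the 3 inhibitors lower in that clone is therefore also a description.

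Of 15 other proteases 8 were tested. PRSS8, the membrane-anchored protease prostasin, was higher in both clones. It had 8 and 6 counts in HPV+ resistant cells, against 1 and 1 in HPV+ parental cells, a ratio of 7.12 with a counting interval of 1.64 to 64.6 (adjusted p = 0.0149). In the HPV- line it had 529 and 576 counts in resistant cells, against 107 and 171 in parental cells (log2 fold change 2.04, adjusted p = 0.000355). CTSV, a lysosomal cysteine protease of epithelia, was higher in the HPV+ clone (log2 fold change 1.00, adjusted p = 0.00625) and lower in the HPV- clone (-1.34, adjusted p = 0.000928), and the difference of 2.35 passed (adjusted p = 0.000405). CTSD, a lysosomal aspartic protease, was higher in the HPV- clone (1.74, adjusted p = 0.000438). In HPV+ parental against HPV- parental cells none of the 8 was higher and 6 were lower, among them PLAU, which encodes urokinase, and TMPRSS13, a membrane protease. Over all genes tested these shares were 17.7% and 19.3%. PLAU, TMPRSS13 and PRSS8 passed the filter through the HPV- line only. Their lower level in HPV+ parental cells was thus built into their selection, and their part of the count is a description.

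Of 12 substrates and receptors 8 were tested. DSG1, a desmosomal cadherin that KLK5 and related proteases cut, was differentially expressed in both clones and in opposite directions. It had 3.77 and 3.02 CPM in HPV+ resistant cells, against 0.707 and 0.680 CPM in HPV+ parental cells (log2 fold change 2.28, adjusted p = 0.00374). In the HPV- line it had 0.453 and 0.848 CPM in resistant cells, against 7.10 and 7.62 CPM in parental cells (log2 fold change -3.49, adjusted p = 0.000364). The difference of 5.77 passed (adjusted p = 0.000165). F2R, the thrombin receptor that some kallikreins can cleave, was lower in the HPV+ clone (-1.25, adjusted p = 0.016) and higher in the HPV- clone (1.09, adjusted p = 0.00965). In HPV+ parental against HPV- parental cells 7 of the 8 were lower and none was higher, against 19.3% and 17.7% of all genes tested. F2RL2, IL1B and FLG passed the filter through the HPV- line only. Their lower level was thus built into their selection, and their part of the count is a description. F2RL1, the receptor that KLK5 activates, had 15.6 and 18.1 CPM in HPV+ parental cells, against 64.0 and 71.6 CPM in HPV- parental cells (log2 fold change -2.01, adjusted p = 4.57e-06).

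Genes with the pattern most like each member were found from the root mean square difference of centred log2 CPM over the 8 libraries, among 13171 or 13172 genes, as a description. Those nearest to SPINK5 were DAPK1 (0.44), FSTL5 (0.46) and PPP1R9A (0.49). Those nearest to KLK10 were PDGFB (0.21), WNT7A (0.22) and FADD (0.22), and those nearest to KLK6 were CA9 (0.29), GSTT2B (0.41) and EPSTI1 (0.42). Within the family, KLK10 ranked 30 from KLK8 and 37 from KLK5, and KLK7 ranked 125 from KLK6. KLK8 ranked 80 from KLK10 and 100 from KLK5. Some other pairs were far apart. KLK6 was at rank 5943 from KLK5, 12211 from KLK13 and 12277 from KLK11, and KLK7 at rank 9578 from KLK11 and 9834 from KLK13. KLK5, KLK6 and KLK13 all had 0 counts in the HPV+ line, where log2 CPM is set by a small added count. Their distances therefore also follow their level in the HPV- line, which was 1.84, 25.3 and 0.466 CPM in parental cells. SPINK5 ranked between 12964 and 12979 from the 7 kallikreins. The 8 libraries come from 2 lines, so any gene that differs between the lines takes part in these ranks.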

How the data were processed

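PolyA RNA was sequenced and quantified by the authors with Salmon on GRCh38 (version and annotation: not given in the sources used here). Estimated counts were deposited as unscaled read pairs for each transcript, and the deposited TPM values are scaled by Salmon for length and depth. Transcripts were matched to GENCODE 44 (172550 of 187432, with 4.33 to 5.13% of counts unmatched), and estimated counts were summed per gene and rounded.

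Genes were tested in edgeR 4.0.16 (R 4.3.3): 1 fit of all 8 libraries with a coefficient for each group, TMM scaling, filterByExpr and robust quasi-likelihood testing, with Benjamini-Hochberg adjustment over 15221 genes. Standard errors are the fold change divided by the root of the F statistic. A group at 0 counts was given a floor of 3 counts over its libraries, and ratios to 1 to 3 counts an exact 95% interval, which cover counting error only. The script was tested on simulated data. Alternatives were DESeq2 1.42.0, limma 3.58.1 on log2 TPM, RLE factors, other filters, a length offset, the 4 libraries of a comparison, no minimum fold change, the replicate block and each library left out. Whether libraries were stranded is not given in these sources.

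The genes and lists were chosen with earlier results of these data known. Named genes were all 8 members, up to 3 genes per list, direction and comparison with the smallest p, the 3 genes nearest each member in pattern, and neighbours within 500 kb. Not all of these are printed. Genes of the Y chromosome and of X inactivation were not named. Promoter sequences are from RefSeq on GRCh38.p14. Plots were made with matplotlib 3.10.9.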

Additional observations from a re-analysis of the deposited data

Results flagged for a closer look

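SPINK5 was the 1 gene of the 8 for which the effect of resistance differed between the lines by a test of the difference itself, at 2.17 on the log2 scale (HPV+ minus HPV-, adjusted p = 0.00751 in edgeR). Both HPV+ resistant libraries were above both HPV+ parental ones, and both HPV- resistant libraries were below both HPV- parental ones. The HPV- values rest on 50 and 21 counts in resistant cells and 76 and 63 counts in parental cells.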

How the results depend on the processing

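Of the fold changes recomputed for the 8 genes, 426 kept direction and side of the threshold, 11 lost the call, 9 gained it and 6 turned sign. In the HPV- clone the count of called genes was 0, it was 1 (KLK11) with only the 4 HPV- libraries, and it ran from 0 to 2 when libraries were left out (KLK6 -1.56 without HPV- resistant replicate 2). In the HPV+ clone the count was 1, it was 0 with the transcript length offset (SPINK5 1.27, adjusted p = 0.0582) and 0 in limma on log2(TPM + 0.1) (1.34, adjusted p = 0.0824), and it ran from 0 to 1 when libraries were left out. Without HPV+ resistant replicate 1 the 1 called gene was KLK11 (-4.34), not SPINK5. For the difference of the effects the count was 1, it was 2 in DESeq2, which added KLK7 (4.76, adjusted p = 0.0372), and it ran from 1 to 2 when libraries were left out, KLK7 again joining without HPV- resistant replicate 2 (6.47). In HPV+ parental against HPV- parental cells the count was 8, it was 5 with a filter of 5 CPM, which left 5 of the genes to test, and it ran from 6 to 8 when libraries were left out. KLK11 (adjusted p = 0.0514 on log2(TPM + 0.1)) and KLK13 (-0.37 on log2(TPM + 1)) lost the call in limma. Signs turned for KLK10 in the HPV- clone (0.15 with the length offset, 0.31 in limma with either pseudocount) and KLK6 in the HPV- clone (0.22 without HPV- resistant replicate 1). They also turned for KLK11 in the HPV+ clone (0.27 without HPV+ resistant replicate 2). The KLK11 difference of the effects turned to -2.68 without HPV+ resistant replicate 1 and kept its sign, at 1.93, without replicate 2. Causes were not tested, apart from the smaller number of genes under the stricter filter. Whether libraries of the same replicate number were handled together is not stated. Their deviations correlated between -0.074 and 0.142 across groups, which cannot show whether they were paired. With the replicate block the counts stayed at 0, 1, 1 and 8, and SPINK5 in the HPV+ clone was at 1.21 (adjusted p = 0.0131). Genes with few counts, such as KLK13 in the HPV- line and all kallikreins but KLK10 in the HPV+ line, have wide counting error at this depth.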
